A study of Mus musculus with 2 samples.

Results

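Mir204, Mir211, Mir184, Mir1298 and Mir448 are 5 mouse miRNA genes known for activity in the eye, in pigment cells and in the choroid plexus. They were chosen by gene symbol from earlier results on these files, in which the levels of several of them differed between the libraries. Their levels and their differences between libraries are therefore given as a description, with no test. All 5 had a row among the 1973 miRNA gene rows of the count files, and all 5 were detected in both libraries. The tissue was the embryonic facial prominence, the buds that form the face and jaws, taken from B6NCrl mice at embryonic day 14.5. There was 1 group of 2 biological replicates, with no treatment, no engineered allele and no other condition. The labels call each sample a single face from 1 pup but also give a mixed sex, so the number of embryos behind each replicate is uncertain. The replicates were collected on different days, and day and replicate cannot be told apart.

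A miRNA is cut from a hairpin in a longer transcript, and its short mature strand guides silencing of messages that match its seed, the bases 2 to 8 from its 5′ end. Mir204 and Mir211 are a pair of related genes that lie in introns of the ion channel genes Trpm3 and Trpm1. miR-204 is abundant in the retinal pigment epithelium, the lens and the choroid plexus, and miR-211 is best known from melanocytes, the pigment cells that come from the neural crest. miR-184 is among the most abundant miRNAs of the cornea and lens. Mir1298 and Mir448 lie in introns of Htr2c, the gene of a serotonin receptor that is made at very high levels by the choroid plexus, the epithelium that secretes cerebrospinal fluid, and also by neurons.

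The mature sequences are shown because the seed decides which of these genes can act on the same messages. For each gene the arm generally taken as the working strand is printed 5′ to 3′, with the seed in capitals. The count files give 1 number per gene, so the counts of the arms of a hairpin are not separated.
miR-204-5p: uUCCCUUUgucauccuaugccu
miR-211-5p: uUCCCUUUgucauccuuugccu
miR-184-3p: uGGACGGAgaacugauaagggu
miR-1298-5p: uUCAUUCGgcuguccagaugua
miR-448-3p: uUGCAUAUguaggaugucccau
The sequences are RefSeq's, on GRCm38.p6, the assembly also called mm10, and all 5 genes matched by symbol. They lie at chr19:22750610-22750631, plus strand (miR-204-5p), chr7:64205831-64205852, plus strand (miR-211-5p), chr9:89802263-89802284, minus strand (miR-184-3p), chrX:147064918-147064939, plus strand (miR-1298-5p) and chrX:147158281-147158302, plus strand (miR-448-3p). Each of these arms is 22 bases long. miR-204-5p and miR-211-5p have the same seed, UCCCUUU, and the other 3 seeds differ from it and from each other. Among the 1738 mature miRNAs of the RefSeq table, 1 other, miR-7670-3p, has the seed of miR-204-5p and miR-211-5p, and its gene Mir7670 had 0 counts in both libraries. The seeds of miR-184-3p, miR-1298-5p and miR-448-3p were found in no other mature miRNA of that table.

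miR-204-5p and miR-211-5p differ at 1 base, A17U, counted from the 5′ end with the base of miR-204-5p first. They are shown again with that base alone in capitals, because it is the base on which their reads are told apart.
miR-204-5p: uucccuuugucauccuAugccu
miR-211-5p: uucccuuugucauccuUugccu
The first 16 bases are shared, so a read of this arm that stops before base 17 matches both genes and would be placed with the reads at several positions, which are not in these counts. Outside that arm the hairpins have diverged. In a global alignment 54 of 106 columns were identical (50.9%), and the opposite arms, miR-204-3p and miR-211-3p, matched at 14 of 21 positions. The hairpins are printed with both arms in capitals.
Mir204: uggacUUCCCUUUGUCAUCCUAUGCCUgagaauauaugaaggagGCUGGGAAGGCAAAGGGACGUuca
Mir211: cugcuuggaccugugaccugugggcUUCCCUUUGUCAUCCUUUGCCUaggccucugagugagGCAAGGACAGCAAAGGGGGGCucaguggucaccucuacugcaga
No run of 20 bases in any of the 5 genes recurs in another miRNA gene of GENCODE M21, and the longest stretch that the printed arms of Mir184, Mir1298 and Mir448 share with any other RefSeq hairpin is 11, 12 and 12 bases. These checks cover miRNA genes only and not the rest of the genome.

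On mm10, Mir204 is on the plus strand of chromosome 19 at 22750605 to 22750672. Its identifier is ENSMUSG00000065507.2 in the counts and ENSMUSG00000065507.3 in GENCODE M21, the source of the positions. Mir211 (ENSMUSG00000065585.1) is on the plus strand of chromosome 7 at 64205806 to 64205911. Mir204 and Mir211 lie in the sense direction in intron 6 of the principal transcript of their host, Trpm3 and Trpm1. In both hosts that intron runs between an exon of 172 bases and an exon of 175 bases. The intron itself is 33462 bases long in Trpm3 and 3682 bases in Trpm1. In some other transcripts of either host the intron has another number or length. Mir184 (ENSMUSG00000065596.1) lies on chromosome 9 at 89802260 to 89802328, minus strand, inside no other annotated gene, and 542 bases from the nearest one, the noncoding gene 1700017I07Rik on the plus strand. Mir1298 (ENSMUSG00000080331.1) lies on chromosome X at 147064905 to 147065002 and Mir448 (ENSMUSG00000065450.1) at 147158210 to 147158321, both on the plus strand and in the sense direction in Htr2c. They do not share an intron: in the principal transcript with 6 exons, Mir1298 is in intron 2 and Mir448 in intron 4. No read was counted on the strand opposite to any of the 5 genes in either library.

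Replicate 1 had 2719153 gene-strand miRNA counts and replicate 2 had 6602050, and levels are given relative to that total in CPM (counts per 1000000 such counts). Of the 1973 genes, 717 had at least 1 count and 372 had a mean of at least 10 counts per library. These 372 are the genes compared between the replicates below, and all 5 described genes are among them. Reads placed at several positions, 29.8% and 28.5% of all reads, are outside the counts. A count of 0 allows up to 3 counts, 1.10 CPM in replicate 1 and 0.454 CPM in replicate 2. Intervals and floors cover counting error only. Ligation favours some miRNA ends over others, and levels of different genes carry that bias; counts were not divided by length, since the printed arms are equally long. In bulk tissue, fewer cells of a type and less RNA per cell cannot be told apart.

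Mir204 was the most abundant of the 5 genes. It had 1279 counts in replicate 1, or 470 CPM (95% Wilson interval 445 to 497), and 5331 counts in replicate 2, or 807 CPM (786 to 829). Its mean was 639 ± 238 CPM (SD, n = 2), which placed it at rank 120 of all rows. Replicate 2 was the higher library, 1.72-fold above replicate 1 (log2 ratio 0.78, counting SE 0.045), and the intervals, of counting error only, did not overlap. Replicate 2 was also the more deeply read one, and the level is scaled for that.

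Mir211, its seed partner, stood far lower. It had 111 counts or 40.8 CPM (33.9 to 49.2) in replicate 1 and 399 counts or 60.4 CPM (54.8 to 66.7) in replicate 2, a mean of 50.6 ± 13.9 CPM (SD, n = 2). It was higher in replicate 2 as well, 1.48-fold (log2 ratio 0.56, counting SE 0.15), and again the intervals did not overlap. The share of all compared genes with intervals apart is not given here, so nothing is read from this for either gene. Within each library the balance of the pair was close to constant. Mir204 made up 92.0% of the summed counts of the pair in replicate 1 (exact Clopper-Pearson 95% interval 90.5 to 93.4) and 93.0% in replicate 2 (92.3 to 93.7), a mean of 92.5% ± 0.723 (SD, n = 2). These shares, whose intervals overlap, do not depend on how the libraries are scaled. With their common seed, the pair together held 511 CPM in replicate 1 and 868 CPM in replicate 2.

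Mir184 was the one gene of the 5 with nearly the same level in both libraries. It had 130 counts or 47.8 CPM (40.3 to 56.8) in replicate 1 and 308 counts or 46.7 CPM (41.7 to 52.2) in replicate 2, a mean of 47.2 ± 0.818 CPM (SD, n = 2). The log2 ratio was -0.039 with a counting SE of 0.15, and it turned to 0.087 with TMM scaling. Mir184 and Mir211 could not be ordered by level: Mir184 was the higher in replicate 1, with 53.9% of the counts of both (47.4 to 60.4, exact interval), and the lower in replicate 2, with 43.6% (39.9 to 47.3). Their means differ by less than the SD of Mir211.

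Mir1298 showed the widest difference between the libraries. It had 151 counts or 55.5 CPM (47.4 to 65.1) in replicate 1 and 1463 counts or 222 CPM (211 to 233) in replicate 2, a mean of 139 ± 117 CPM (SD, n = 2). That is a 3.98-fold difference (log2 ratio 1.99, counting SE 0.12). In replicate 1 it stood beside Mir184, whose interval overlapped its own, at rank 230 of all rows. In replicate 2 it was clearly second to Mir204 among the 5 genes, at rank 163.

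Mir448, the other Htr2c gene of the group, was the lowest of the 5 and differed nearly as much. It had 17 counts or 6.25 CPM (3.90 to 10.01) in replicate 1 and 154 counts or 23.3 CPM (19.9 to 27.3) in replicate 2, a mean of 14.8 ± 12.1 CPM (SD, n = 2). The difference was 3.64-fold (log2 ratio 1.86), with a wider counting SE of 0.37 because of the 17 counts in replicate 1. Mir1298 exceeded Mir448 by 8.88-fold in replicate 1 and by 9.50-fold in replicate 2.

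**Figure D1:**
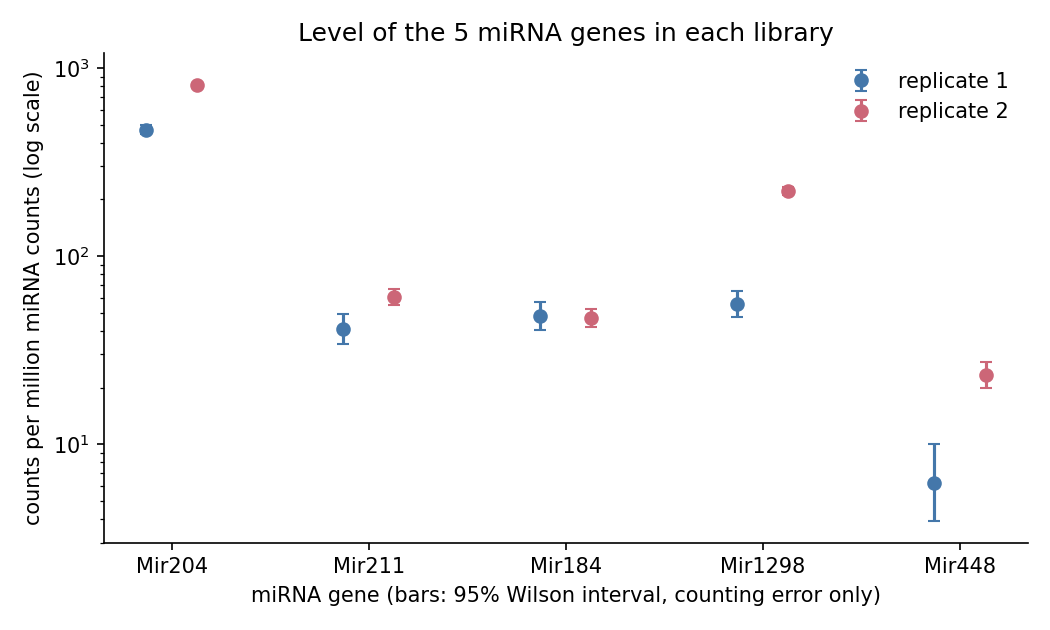
Level of the 5 genes in replicate 1 (blue) and replicate 2 (red), in CPM on a log axis, with 95% Wilson intervals that cover counting error only. Mir204 is highest in both libraries, Mir184 is at 47.8 and 46.7 CPM, and Mir1298 and Mir448 are 3.98-fold and 3.64-fold higher in replicate 2.

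The order by mean level was therefore Mir204, Mir1298, Mir211, Mir184 and Mir448. With n = 2 the SD of Mir1298 (117 CPM) exceeds its distance to Mir211 and Mir184, and the distance from Mir448 to Mir184 exceeds the SDs of both. Within each library, however, Mir1298 was above Mir211 and Mir184. Mir211 stood at 0.735 and 0.273 of its level in replicates 1 and 2, and Mir184 at 0.861 and 0.211. In replicate 1 the interval of Mir1298 overlapped those of both. The summed level of the 5 was 621 CPM in replicate 1 and 1159 CPM in replicate 2, a mean of 890 ± 381 CPM (SD, n = 2). The make-up of that sum shifted. Mir204 was 75.8% of it in replicate 1 (73.7 to 77.8, exact interval) and 69.6% in replicate 2 (68.6 to 70.7). The Htr2c genes Mir1298 and Mir448 together were 9.95% in replicate 1 (8.57 to 11.5) and 21.1% in replicate 2 (20.2 to 22.1). Mir184 was 7.70% (6.47 to 9.08) and 4.02% (3.59 to 4.49).

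Over the whole table, 5.65% of the 372 compared genes were at least 1.5-fold higher in replicate 2, and 11.3% at least 1.5-fold lower. Of the 5 described genes, 3 were at least 1.5-fold higher (Mir204, Mir1298 and Mir448) and none was lower by that much. This contrast helped to choose the genes, so nothing is read from that count. Mir211 at 1.48-fold lay just under the limit, and with TMM scaling, which adds 0.13 to every log2 ratio, it stood at 1.61-fold and the count was 4 of 5. The median log2 ratio was 0.78 for the 5 genes and -0.14 for all compared genes. With TMM those medians were 0.90 and -0.017, and 6.99% of the compared genes were at least 1.5-fold higher and 8.87% lower.

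The 5 genes took different places among all compared genes. No compared gene had a higher log2 ratio than Mir1298, only Mir1298 was above Mir448, and 15 were above Mir204. The central 95% of the compared genes ran from -1.16 to 0.93. Both Htr2c genes lay above that range, Mir204 and Mir211 lay inside its upper part, and Mir184 lay near its middle. The range pools genes of all levels, and genes with few counts spread more widely. At a mean of at least 100 counts, 9.58% of genes were at least 1.5-fold apart, against 16.9% of all compared genes.

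**Figure D2:**
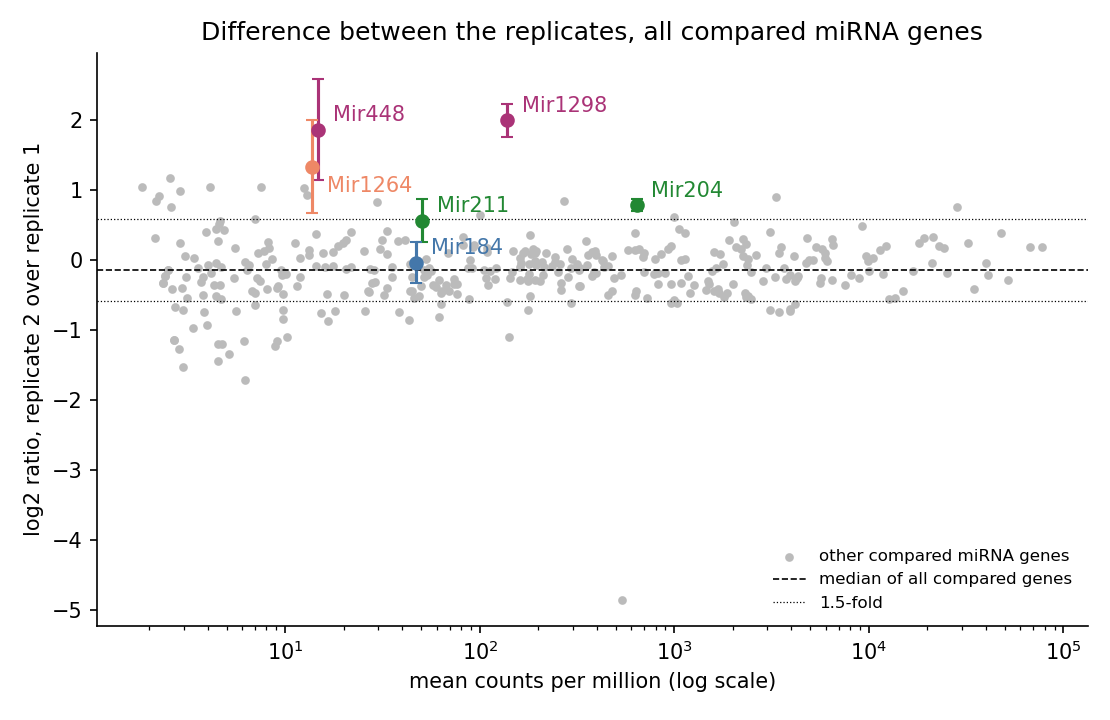
Log2 ratio of replicate 2 over replicate 1 against mean level (log axis, CPM) for the 372 compared miRNA genes, with the 5 described genes and Mir1264 in colour; their bars are 1.96 counting standard errors. The dashed line is the median of all compared genes (-0.14) and the dotted lines mark 1.5-fold. Mir1298 (1.99), Mir448 (1.86) and Mir1264 (1.33) are the highest 3 points.

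The Htr2c locus carries further miRNA genes, which were listed for comparison by their place in Htr2c, with earlier results of these data known. GENCODE M21 and the count files share 7 miRNA genes within the 234.8 kb of Htr2c (chromosome X, 146962513 to 147197277, plus strand). Mir1264 lies 48.1 kb from the start of Htr2c in intron 2, the intron that also holds Mir1298 at 102.4 kb, while Mir448 lies at 195.7 kb. Mir1264 had 21 counts or 7.72 CPM (5.05 to 11.8) in replicate 1 and 131 counts or 19.8 CPM (16.7 to 23.5) in replicate 2, which is 2.52-fold higher (log2 ratio 1.33, counting SE 0.34). Its mature arm is printed for comparison with those of Mir1298 and Mir448; its seed is that of neither and of no other mature miRNA in the RefSeq table.
miR-1264-3p: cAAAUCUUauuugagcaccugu
It lies at chrX:147010655-147010676, plus strand, on GRCm38.p6. Mir1264 was the third highest of the 372 log2 ratios, so the highest 3 values of the table all belonged to Htr2c introns. Mir1264 was not a gene of the rule, but its ratio comes from the same libraries, so it too is given with no test.

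The remaining Htr2c genes were at or near the floor. Mir1912 had 1 count in replicate 1 and 7 in replicate 2, Mir764 had 0 and 1, and Gm24627, which RefSeq lists as Mir1911, had 0 in both. Gm22650, which was not on the list, had 1 and 0. Only Mir1912 in replicate 2 exceeded 3 counts.

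The share of each gene in the Htr2c counts can be set beside its share in the other library. Mir1298 made up 79.5% of the counts of the listed Htr2c genes in replicate 1 (73.0 to 85.0, exact interval) and 83.3% in replicate 2 (81.5 to 85.0). Mir448 made up 8.95% (5.30 to 13.9) and 8.77% (7.49 to 10.2), and Mir1264 made up 11.1% (6.97 to 16.4) and 7.46% (6.27 to 8.79). All 3 pairs of intervals overlap. With 17 counts of Mir448 and 21 of Mir1264 in replicate 1 the intervals are wide, so the overlap does not show that the proportions were equal. The sum of the locus was 69.9 CPM in replicate 1 and 266 CPM in replicate 2, 3.81-fold apart. Of the 38 other compared genes on chromosome X, 1 was at least 1.5-fold higher in replicate 2 and 5 were at least 1.5-fold lower. Over all compared genes the shares were 5.65% and 11.3%. The median log2 ratio of the 38 was -0.35, against -0.14 for all compared genes.

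**Figure D3:**
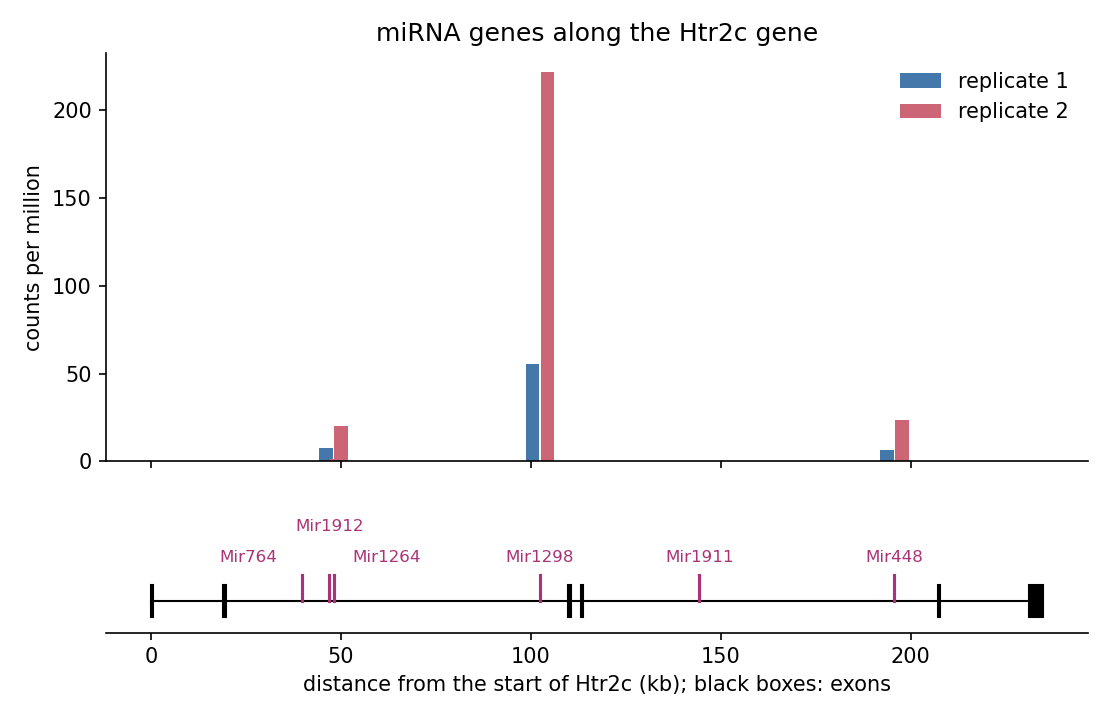
Level of the listed Htr2c miRNA genes (bars, CPM, replicate 1 blue and replicate 2 red) by distance from the start of Htr2c in kb, above a map of the 6 exons of a principal transcript (black, short exons drawn at a minimum width). Mir1298 reaches 55.5 and 222 CPM, Mir448 and Mir1264 stay under 24 CPM, and Mir764, Mir1912 and Mir1911 are too low to see.

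Markers of other cell types that the tissue could hold differed between the libraries to different degrees. Multiciliated epithelium, a cell state that the choroid plexus shares with airway lining, was measured by 5 miRNA genes without long shared stretches, all detected. Their sum was 2987 CPM in replicate 1 and 5085 CPM in replicate 2, and 3 of the 5 were at least 1.5-fold higher in replicate 2 (median log2 ratio 0.90), against 5.65% of all compared genes. The 3 are Mir449a, Mir449b and Mir449c, which form 1 cluster on chromosome 13. Mir34c and Mir34b did not reach 1.5-fold, at 1.11-fold and 1.32-fold. Mir449a, which promotes the making of many cilia, stood at 2334 and 4341 CPM, and Mir34c, of the related miR-34 family, at 621 and 692 CPM. The Mir449 cluster was thus higher in the same library as Mir204, Mir1298 and Mir448, and the part of multiciliated cells in their difference was not tested.

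Surface and cornea epithelium, measured by 8 genes, summed to 52917 CPM in replicate 1 and 67919 CPM in replicate 2. Of these 8, 1 was at least 1.5-fold higher in replicate 2, against 5.65% of all compared genes. That gene was Mir203, a miRNA of differentiating epidermis, at 21094 and 35599 CPM. Mir429 of the miR-200 family stood at 10828 and 11895 CPM. The median log2 ratio of the list was 0.071, against -0.14 for all compared genes, and Mir184 at -0.039 lay between them.

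The retina and photoreceptor list had 8 genes with a row, 4 of them at 0 in both libraries. These 4 are Mir9-2 and the 3 copies of Mir124a, the defining neuronal members, and reads of 5 of the 8 can be lost to near-identical copies, with which those genes have at least 20 bases in common. The sum, 18667 CPM in replicate 1 and 20401 CPM in replicate 2, came from the sensory cluster. Mir182 stood at 9890 and 9783 CPM and Mir183 at 6085 and 7065 CPM, and both are also made in the inner ear and in other sensory organs. Of the 4 compared genes of the list, 1 was at least 1.5-fold higher in replicate 2, against 5.65% of all compared genes. That gene was Mir9-3, at 7 and 37 counts.

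The neuron list had no gene that was 1.5-fold apart, against 16.9% of all compared genes. With only 11 genes, nothing is read from that. These 11 genes, all detected, summed to 1782 CPM in replicate 1 and 1435 CPM in replicate 2. The median log2 ratio was -0.27, against -0.14 for all compared genes, and the part of neurons in the difference of the Htr2c genes was not tested. Mir137, a miRNA of maturing neurons, stood at 740 and 522 CPM and Mir338, of neurons and glia, at 194 and 192 CPM. Near-identical copies with 20 or more common bases exist for 8 of the 11 genes, but not for Mir137. The Mir9 and Mir124a genes were placed in the retina list and not in this one. Of these, Mir9-3 was 2.06-fold higher in replicate 2, at 7 and 37 counts. The pigment cell list consists of Mir204 and Mir211 themselves and adds no other gene. The lists used here hold no other miRNA marker of pigment cells or of lens, and the label of eye and choroid plexus for the 5 genes was not checked by other markers.

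**Figure D4:**
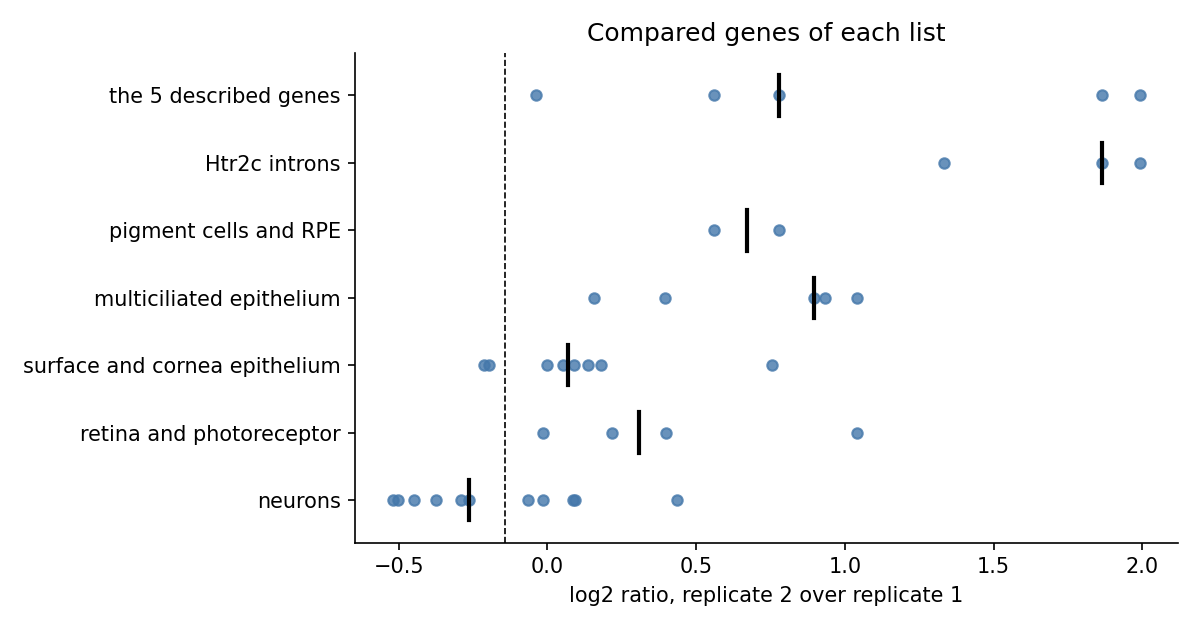
Log2 ratio of replicate 2 over replicate 1 for each compared gene (points) of the 5 described genes and of the lists for other cell types; RPE is the retinal pigment epithelium, the black bar is the list median and the dashed line the median of all compared genes (-0.14). The Htr2c and multiciliated medians lie at 1.86 and 0.90, and the neuron median at -0.27.

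Genes closest to the described ones over both libraries were found by the distance between log2(CPM + 1) values, 2 for each. With only 2 libraries this likeness is one of level and of 1 difference. Mir448 was nearest to Mir1264 (distance 0.35), and then to Mir7688 (0.56). Mir204 was nearest to the leukocyte miRNA gene Mir223 (0.28), at 543 and 710 CPM, and to Mir543 (0.45). Mir184 lay nearest to Mir153 (0.15) and Mir3072 (0.18), and Mir211 to Mir505 (0.41) and Mir378d (0.43). Mir1298 had no close neighbour: its nearest gene, Mir7j, stood at 78.3 and 123 CPM (distance 0.98), and the next, Mir668, at a distance of 1.28.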

How the data were processed

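The authors deposited raw read counts per miRNA gene, 1 library per file, replicates not pooled. Reads were aligned to mm10 and counted over GENCODE M4, per the labels and the deposited metadata text; for aligner, trimming and counter the entry is "not given in the sources used here". There are 1973 gene rows and 3 count columns per file; in every row the gene-strand and opposite-strand columns sum to the first. The 4 rows of unassigned reads (with opposite-strand reads, 51.6% and 50.7% of all reads) were left out of totals.

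Symbols and positions came from GENCODE M21 on the same assembly, by gene identifier (1894 of 1973 named), with older symbols from RefSeq. CPM used gene-strand totals. Log2 ratios used a prior of 0.5 counts; genes with a mean of at least 10 counts were compared. The fold rule was tested on simulated data with counting error only, which does not cover variation between replicates. TMM came from edgeR 4.0.16 and size factors from DESeq2 1.42.0; no p-value was computed. The described genes and lists were chosen with earlier results of these data known. Named genes are the 5 genes, the other listed Htr2c miRNA genes, the 2 nearest genes of each described gene and the 2 highest of each list; Mir9-2, Mir9-3, the Mir124a copies and Gm22650 were added after their values were seen. Alternatives were other scalings, count columns, priors, filters, thinning and leaving out each replicate.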

Additional observations from a re-analysis of the deposited data

How the results depend on the processing

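Of 155 values recomputed under the alternatives, 135 stayed within the limit set for the result and 20 moved past it. The limit was the spread or counting interval of the result. For the numbers and shares of genes at least 1.5-fold apart, it was a 1.5-fold change of that number or share. None of the called log2 ratios changed sign. The 135 include 13 values without replicate 1 and 13 without replicate 2, which are no check. A mean of 2 replicates always lies closer to each of them than their SD. Scaling to the total of all reads lowers every level by construction: Mir204 stood at 313 CPM, Mir211 at 24.8, Mir184 at 23.1 and the sum of the 5 genes at 436, and the list sums at 9551 (retina), 1978 (multiciliated), 29564 (surface epithelium), 785 (neurons) and 338 (pigment). Mir1298 at 68.1 CPM, Mir448 at 7.27 and the Htr2c list at 82.5 were lowered as well. They count as within the limit only because their SDs are wide, at 117, 12.1 and 139 CPM. Without the highest gene in the total, Mir184 was at 51.2 CPM and the retina list at 21193. Mir184 was at 45.2 CPM with both strands together and at 44.3 with replicate 2 thinned, outside its small SD of 0.818. The log2 ratio of Mir204, which is also the median of the 5 genes, was 0.90 with TMM and 0.91 with DESeq2 size factors, and the median was 0.67 at a mean of at least 100 counts, where Mir448 drops out. The number of described genes at least 1.5-fold apart was 4 under TMM, DESeq2 size factors, the total of all reads and thinning, with Mir211 the added one, and 2 at a mean of at least 100 counts. The share of all compared genes at least 1.5-fold apart was 39.7% with no count filter and 9.58% at a mean of at least 100 counts, against 16.9%. The 17 counts of Mir448 and 21 of Mir1264 in replicate 1 limit the precision of their ratios. No paired analysis was possible because there is 1 group with 2 replicates and no second group to pair with.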
